A study of Homo sapiens with 6 samples.

Results

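PKM and the proteins known to steer its choice between alternative exons were followed through ZMYND11 knockdown in 22Rv1 cells, an established human prostate carcinoma line. The 7 genes, PKM, HNRNPA1, HNRNPA2B1, PTBP1, SRSF3, RBM4 and NEK2, were taken by symbol from a table of 35322 gene symbols, and all 7 passed the filter on low counts. RNA was sequenced in 6 libraries, 2 each of control cells, ZMYND11 kd1 (ZM11-kd1 in the labels) and ZMYND11 kd2 (ZM11-kd2). The labels give the control cells as WT and both other groups as ZMYND11 knockdown, with no treatment and serum-containing RPMI1640 medium in every group. A legend of the study describes the sequenced cells as stably carrying shRNAs, against ZMYND11 in the knockdown cells and control shRNAs in the others, whereas the labels call the control WT and name no shRNA, a conflict that the sources used here do not resolve. Which shRNA each knockdown carried is not given in the sources used here. Nothing says whether libraries of a group came from separate cultures, so p-values measure only the spread between these libraries, which may be technical.

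PKM encodes the muscle-type pyruvate kinase, which makes pyruvate in the last step of glycolysis. Its transcripts contain either the PKM1 exon, common in differentiated tissues such as muscle and brain, or the PKM2 exon, common in proliferating and cancer cells. HNRNPA1, HNRNPA2B1 and PTBP1 bind around the PKM1 exon and repress its inclusion. SRSF3 favours inclusion of the PKM2 exon, and RBM4 favours the PKM1 exon. NEK2, a mitotic kinase, has been described as a partner of hnRNP proteins in this choice. The values here are totals per gene, so they do not separate PKM1 from PKM2 and say nothing of the protein levels or of where the proteins lie in the cell.

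The sequences around the alternative exons are shown with letters tied to PTBP1 and HNRNPA1, and none was searched for the other regulators. The PKM gene occupies the minus strand of chr15, at 72199029 to 72231819 of GRCh38. Each of the alternative exons is 167 bases long, is the 9th of the 11 exons of its own transcript, and occurs in 5 of the 25 annotated PKM transcripts. The following are the last 50 bases of the intron before each exon, the exon, and the first 50 bases of the intron after it, read 5′ to 3′ on the transcript strand as DNA. Capitals mark TCTT, a core of PTBP1 binding, and TAGGGC, the HNRNPA1 element. Only the transcript strand was searched, and a match is a description of the sequence, not a measured site.
Intron before the PKM1 exon (chr15:72203189-72203238): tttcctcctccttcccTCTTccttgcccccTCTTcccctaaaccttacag
PKM1 exon (chr15:72203022-72203188): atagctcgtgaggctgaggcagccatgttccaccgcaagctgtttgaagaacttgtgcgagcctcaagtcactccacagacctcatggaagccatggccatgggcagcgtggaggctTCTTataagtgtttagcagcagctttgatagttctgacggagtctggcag
Intron after the PKM1 exon (chr15:72202972-72203021): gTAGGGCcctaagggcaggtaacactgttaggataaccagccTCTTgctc
Intron before the PKM2 exon (chr15:72202621-72202670): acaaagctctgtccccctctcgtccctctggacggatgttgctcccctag
PKM2 exon (chr15:72202454-72202620): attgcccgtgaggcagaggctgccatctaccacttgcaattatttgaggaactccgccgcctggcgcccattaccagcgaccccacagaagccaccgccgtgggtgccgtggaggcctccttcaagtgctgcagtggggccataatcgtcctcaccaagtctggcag
Intron after the PKM2 exon (chr15:72202404-72202453): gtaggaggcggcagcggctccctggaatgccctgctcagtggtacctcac

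The intron before the PKM1 exon holds TCTT 2 times, while the same stretch before the PKM2 exon holds it 0 times. Of 171249 such windows before internal exons in GENCODE 44, 49.128% hold TCTT at least once and 15.197% at least as often as the PKM1 window. TAGGGC begins at base 2 of the intron after the PKM1 exon, and 1.027% of windows after internal exons hold it. The PKM1 and PKM2 exons are identical at 105 of 167 positions (62.9%), so much of each exon differs in the letters a read would carry. A count per gene discards that information.

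A short account of the whole series gives the scale for the 7 genes. Library totals ranged from 26844128 to 38193748 counts, and 16510 genes were tested. ZMYND11 itself fell from 141 and 135 CPM (counts scaled to a common library size after TMM normalization) in control libraries to 27.7 and 26.1 in kd1 and 21.6 and 22.7 in kd2, log2 fold changes of -2.35 and -2.64. By edgeR's quasi-likelihood test with Benjamini-Hochberg adjustment over all genes tested, at an adjusted p under 0.05, 78% of genes were called in kd1 against control, 38.2% as higher and 39.8% as lower. In kd2 against control 73.4% were called, 36.5% higher and 36.9% lower, and between kd2 and kd1 68.8% were called, 34.9% higher and 33.8% lower in kd2. Replicates differed beyond sampling noise in each group, with a chi-square per degree of freedom of 2.34 in control, 3.86 in kd1 and 10.1 in kd2, so the kd2 libraries were the least alike.

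Against this background, 6 of the 7 genes were called in kd1, 1 higher (PKM) and 5 lower (HNRNPA1, HNRNPA2B1, PTBP1, SRSF3 and NEK2). In kd2, 4 of the 7 were called, with PKM higher and HNRNPA1, PTBP1 and NEK2 lower. The share called was 85.7% in kd1 and 57.1% in kd2, near the 78% and 73.4% of all genes, so the number of calls does not set these genes apart. The information lies in the direction and size of each gene's change. All 7 genes had knockdown libraries on 1 side of both controls in kd1 and 4 of 7 did in kd2, where 89.7% and 86.3% of all genes did. Both comparisons share the control libraries.

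**Figure D1:**
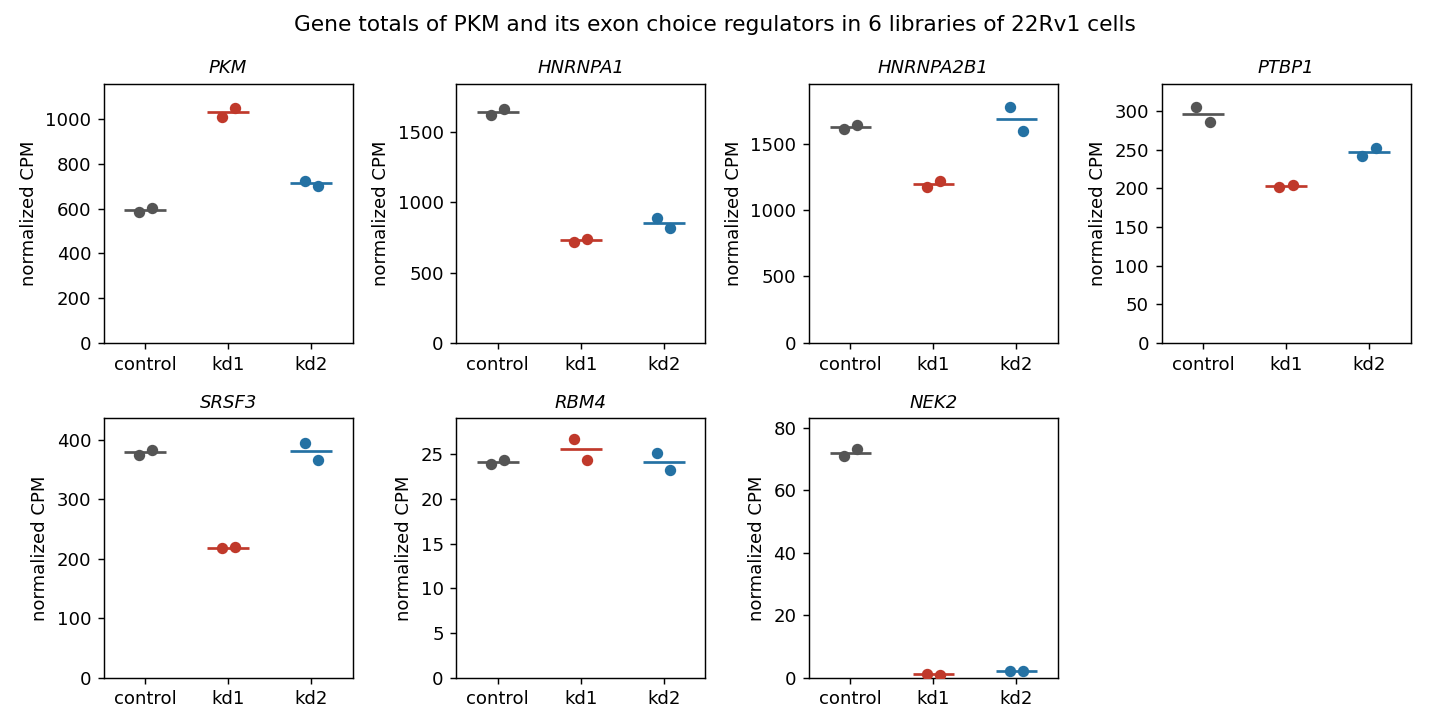
Normalized CPM (y axis, from 0) of each gene in control, ZMYND11 kd1 and ZMYND11 kd2 cells; points are libraries and lines are means of 2 libraries. PKM was highest in kd1, HNRNPA1 and PTBP1 were lower in both knockdowns, SRSF3 and HNRNPA2B1 were lower in kd1 alone by call, NEK2 was near 0 in both, and RBM4 lay between 23.2 and 26.7 CPM.

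PKM transcripts rose in both knockdowns. The control libraries gave 587 and 600.4 normalized CPM, kd1 gave 1009 and 1049, and kd2 gave 725 and 701. The means were 593 ± 9.85, 1029 ± 28.8 and 713 ± 16.7 (SD, n = 2 libraries each). All 4 knockdown libraries lay above both controls, and both kd1 libraries lay above both kd2 libraries. The log2 fold change was 0.79 (SE 0.05) in kd1, a 1.73-fold rise (edgeR adjusted p = 1.89e-09), and 0.26 (SE 0.05) in kd2 (edgeR adjusted p = 0.000249). The difference between kd2 and kd1 was -0.53 (SE 0.05, edgeR adjusted p = 2.94e-07). In kd1 the rise kept its call under 4 scalings of the libraries, with values down to 0.42 once GC content and transcript length were corrected for. In kd2 the call was lost when libraries were scaled by their totals alone (0.09, edgeR adjusted p = 0.0673), a scaling that moved the median of all genes to -0.198 from -0.028.

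HNRNPA1, the repressor bound to the TAGGGC element shown above and the partner of ZMYND11 in the study, fell most among the RNA-binding regulators. Its gene lies on chromosome 12 at 54280193 to 54287088. Control libraries gave 1620 and 1658 normalized CPM, kd1 gave 718 and 737, and kd2 gave 887 and 815. The means were 1639 ± 26.8, 727.7 ± 13.2 and 851 ± 51.1 (SD, n = 2 libraries each). Every knockdown library lay below both controls, and the kd1 libraries lay below the kd2 libraries. The mean was 2.25-fold lower in kd1 (log2 fold change -1.17, SE 0.054, edgeR adjusted p = 6.37e-11) and 1.92-fold lower in kd2 (-0.94, SE 0.054, edgeR adjusted p = 9.99e-10). These held under the other scalings, with values from -1.53 to -0.85 in kd1 and from -1.12 to -0.92 in kd2. Between the knockdowns HNRNPA1 was 0.23 higher on the log2 scale in kd2 (SE 0.054, edgeR adjusted p = 0.00174), but after the GC and length correction this became -0.06 (edgeR adjusted p = 0.282). The table lists 15 symbols of HNRNPA1 pseudogenes, which together held at most 0.446% of the HNRNPA1 counts in a library.

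HNRNPA2B1, the closest relative of HNRNPA1 among these genes and a repressor of the same exon, fell in kd1 and was not called in kd2. Control libraries gave 1607 and 1637 normalized CPM, kd1 gave 1175 and 1216, and kd2 gave 1776 and 1592. The kd1 libraries lay below both controls, whereas the kd2 libraries lay on either side of them. The log2 fold change was -0.44 in kd1 (SE 0.057, edgeR adjusted p = 5.24e-06), and in kd2 it was 0.05 with a 95% interval from -0.07 to 0.18 (edgeR adjusted p = 0.402). The difference of 0.49 between kd2 and kd1 was called (SE 0.057, edgeR adjusted p = 2.32e-06). These values moved with the libraries and the scaling used. Without kd2 replicate 2, HNRNPA2B1 was called higher in kd2 (0.14, edgeR adjusted p = 0.00301), in a fit where the lone kd2 library is assumed to vary like the other groups. With library totals alone it was called lower (-0.12, edgeR adjusted p = 0.0387). After the GC and length correction neither the kd1 value (-0.09, edgeR adjusted p = 0.123) nor the difference between knockdowns (0.08, edgeR adjusted p = 0.192) was called. The canonical HNRNPA2B1 transcript has a GC content of 38.4%, the lowest of the 7. HNRNPA2B1 also shares 1207 exon bases with NFE2L3 and 368 with CBX3, both on the opposite strand, and without a stated use of strand their reads cannot be told apart there.

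PTBP1, the polypyrimidine tract-binding protein that reads pyrimidine stretches such as the intron end before the PKM1 exon shown above, fell in both knockdowns. Control libraries gave 306 and 286 normalized CPM, kd1 gave 202 and 205, and kd2 gave 242 and 253. The groups did not overlap, and kd2 lay between kd1 and control. The log2 fold change was -0.54 in kd1 (SE 0.054, edgeR adjusted p = 2.98e-07) and -0.26 in kd2 (SE 0.053, edgeR adjusted p = 0.000489). PTBP1 kept these calls under each scaling, with values from -0.89 to -0.53 in kd1 and from -0.43 to -0.24 in kd2. The summed level of the repressors HNRNPA1, HNRNPA2B1 and PTBP1 was 3533 and 3581 CPM in control, 2096 and 2158 in kd1 and 2905 and 2660 in kd2, lower in every knockdown library than in both controls.

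SRSF3, a serine and arginine rich splicing factor that favours the PKM2 exon, differed more between the knockdowns than the other RNA-binding regulators, except after the GC and length correction, where its difference was 0.38 and that of PTBP1 was 0.50. Control libraries gave 374 and 383 normalized CPM, kd1 gave 218 and 219, and kd2 gave 394 and 365. The kd1 libraries lay far below the rest, and the kd2 libraries lay on either side of the controls. The log2 fold change was -0.79 in kd1 (SE 0.054, edgeR adjusted p = 3.93e-09) and 0.01 in kd2 (95% interval -0.11 to 0.12, edgeR adjusted p = 0.929). The difference between kd2 and kd1 was 0.80 (SE 0.053, edgeR adjusted p = 7.69e-09). After the GC and length correction the kd1 value was -0.35 and still called, and with library totals alone SRSF3 was called lower in kd2 as well (-0.17, edgeR adjusted p = 0.00625).

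RBM4, which favours the PKM1 exon and so acts against the repressors, was low and was not called in any comparison. Control libraries gave 23.9 and 24.37 normalized CPM, kd1 gave 26.7 and 24.39, and kd2 gave 25.2 and 23.2. The kd1 libraries lay above the controls by a margin as small as 24.39 against 24.37, and the kd2 libraries lay on either side. The log2 fold change was 0.08 in kd1 (95% interval -0.1 to 0.26, edgeR adjusted p = 0.394) and 0.00 in kd2 (95% interval -0.18 to 0.18, edgeR adjusted p = 0.987). The direction in kd1 depended on the scaling: RBM4 was called lower with library totals alone (-0.27, edgeR adjusted p = 0.0102) and after the GC and length correction (-0.38, edgeR adjusted p = 0.000326). Its counts are uncertain for another reason. The canonical RBM4 transcript shares 1557 of its 1607 bases (96.9%) with the readthrough gene RBM14-RBM4 on the same strand, which had between 1 and 24 counts per library, and RBM4 shares 590 exon bases with RBM4B on the opposite strand. How reads in such overlaps were counted is not given in the sources used here.

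NEK2, a centrosomal kinase of mitosis, fell to near 0. Control libraries held 2158 and 2275 reads (70.9 and 73.2 normalized CPM), kd1 held 42 and 27 (1.24 and 0.912 CPM), and kd2 held 78 and 74 (2.18 and 2.16 CPM). No library of either knockdown came near the controls, and both kd2 libraries lay above both kd1 libraries. NEK2 was 66.3-fold lower in kd1 (log2 fold change -6.05, SE 0.12, edgeR adjusted p = 3.53e-14) and 33.1-fold lower in kd2 (-5.05, SE 0.11, edgeR adjusted p = 1.09e-13). Of all genes tested, 99.1% in kd1 and 99.2% in kd2 had a smaller change in size. The level in kd2 was 2.0-fold that in kd1 (log2 1.00, SE 0.19, edgeR adjusted p = 0.000312).

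**Figure D2:**
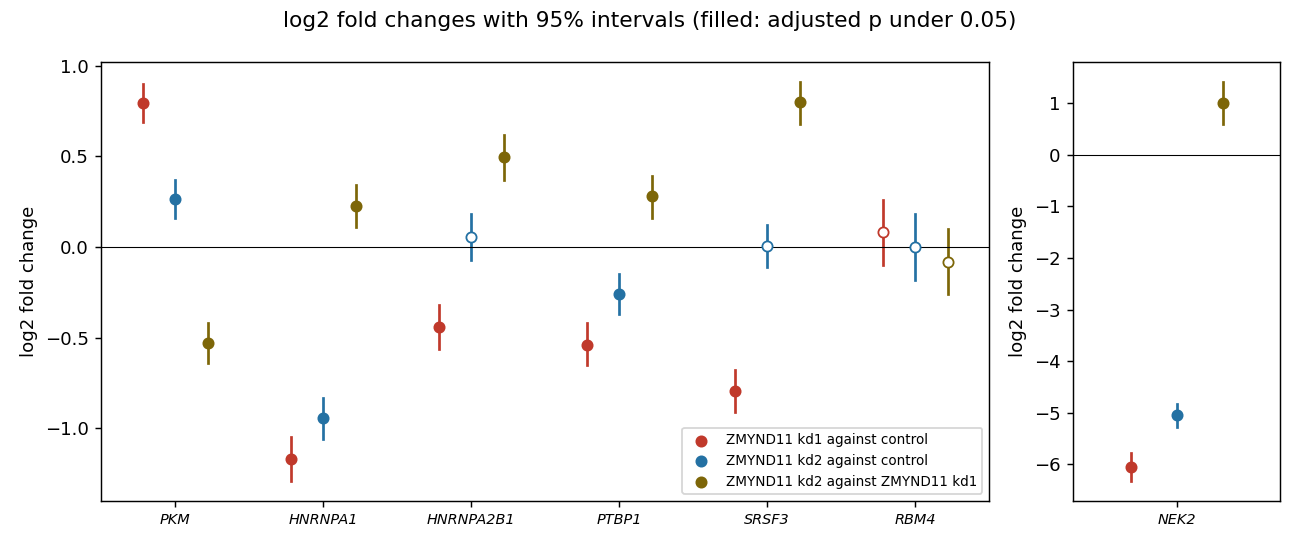
Log2 fold changes (y axis) with 95% intervals for 3 comparisons, with NEK2 on an axis of its own; filled points passed an adjusted p under 0.05. PKM is the only one of the 7 genes with a called rise against control (0.79 in kd1 and 0.26 in kd2), and HNRNPA2B1, SRSF3 and RBM4 have open points near 0 in kd2.

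The knockdowns differed from each other in 6 of the 7 genes. HNRNPA1, HNRNPA2B1, PTBP1, SRSF3 and NEK2 were called higher in kd2 than in kd1 and PKM was called lower, against 68.8% of all genes called, 34.9% higher and 33.8% lower. In 6 of 7 genes the libraries of the knockdowns did not overlap, where 83.1% of all genes did not. The exception was RBM4 (log2 difference -0.08, 95% interval -0.26 to 0.10, edgeR adjusted p = 0.415), which after the GC and length correction was called higher in kd2 (0.30, edgeR adjusted p = 0.00248). For the 5 regulators that fell in kd1, the kd2 level therefore lay nearer the control, but after the GC and length correction this was not so for HNRNPA1 (kd2 against kd1 -0.06, edgeR adjusted p = 0.282), and for HNRNPA2B1 neither the fall in kd1 (-0.09, edgeR adjusted p = 0.123) nor the difference (0.08, edgeR adjusted p = 0.192) was called.

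Levels of different genes were set side by side as CPM per kilobase of the canonical transcript. In control cells HNRNPA2B1 (443 and 451) and HNRNPA1 (433 and 443) stood highest, then PKM (254 and 260), then PTBP1 (95.4 and 89.3) and SRSF3 (88.4 and 90.6), then NEK2 (33.2 and 34.3) and RBM4 (14.9 and 15.2). HNRNPA2B1 and HNRNPA1 met at 443, and PTBP1 and SRSF3 overlapped, so those neighbours did not differ beyond their spread. In kd1 the order was led by PKM at a mean of 446 CPM per kilobase, then HNRNPA2B1 at 330 and HNRNPA1 at 194. In kd2 HNRNPA2B1 led at 464, then PKM at 309 and HNRNPA1 at 227. NEK2 fell to last place in both knockdowns, at 0.503 and 1.02. Canonical lengths stand in for the isoforms actually used, which were not measured here.

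A ratio of counts between 2 genes within a library does not move with a single scaling factor per library, but it does move with the gene-wise GC and length correction. HNRNPA1 and HNRNPA2B1 were equally counted in control libraries, with HNRNPA1 taking 50.2% and 50.3% of their joint reads. That share was 37.9% and 37.7% in kd1 and 33.3% and 33.9% in kd2, so the balance between these relatives moved toward HNRNPA2B1 in every knockdown library. The log2 ratio of HNRNPA1 to PKM counts was 1.47 in both controls, -0.49 and -0.51 in kd1, and 0.29 and 0.22 in kd2. SRSF3 to PKM fell from -0.65 in both controls to -2.21 and -2.26 in kd1, but only to -0.88 and -0.94 in kd2. HNRNPA1 to SRSF3 moved further in kd2 (1.17 and 1.16) than in kd1 (1.72 and 1.75), from 2.12 and 2.11 in control. After the GC and length correction the kd1 change of HNRNPA1 relative to PTBP1 was -0.12 in place of -0.63, that of HNRNPA1 relative to PKM was -1.28 in place of -1.97, and that of SRSF3 relative to PKM was -0.77 in place of -1.59. HNRNPA1 relative to HNRNPA2B1 changed by -0.76 in place of -0.73. These ratios are given as a description and were not tested here.

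**Figure D3:**
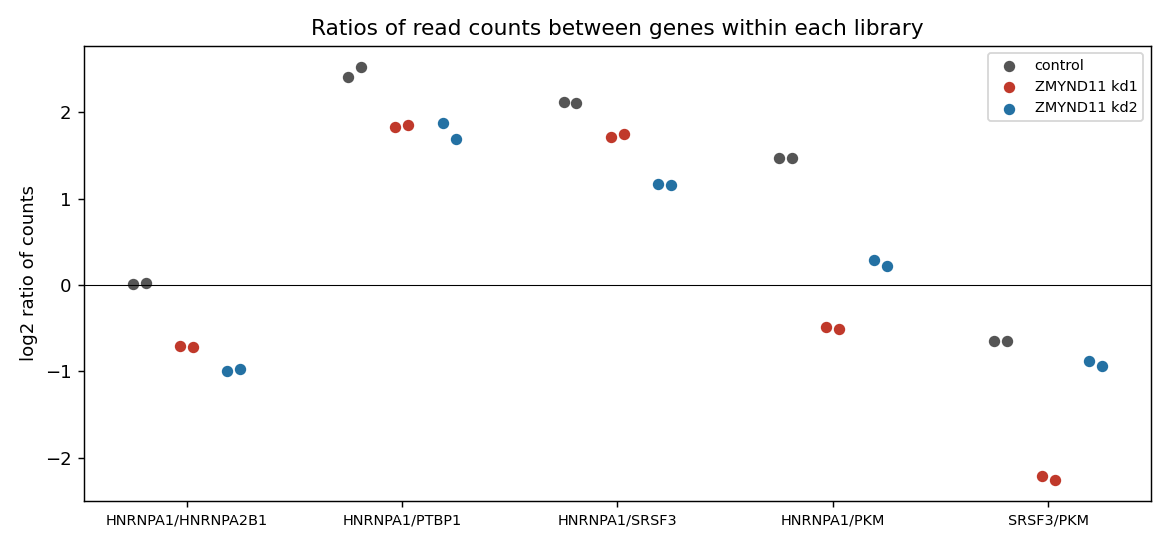
Log2 ratio of read counts (y axis) for 5 pairs of genes within each library; points are libraries, coloured by group. In these uncorrected counts HNRNPA1 is lower relative to HNRNPA2B1, PTBP1, SRSF3 and PKM in all 4 knockdown libraries (relative to PTBP1 in kd1 by only -0.12 after the GC and length correction), and SRSF3 to PKM is lowest in kd1, at -2.21 and -2.26.

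**Figure D4:**
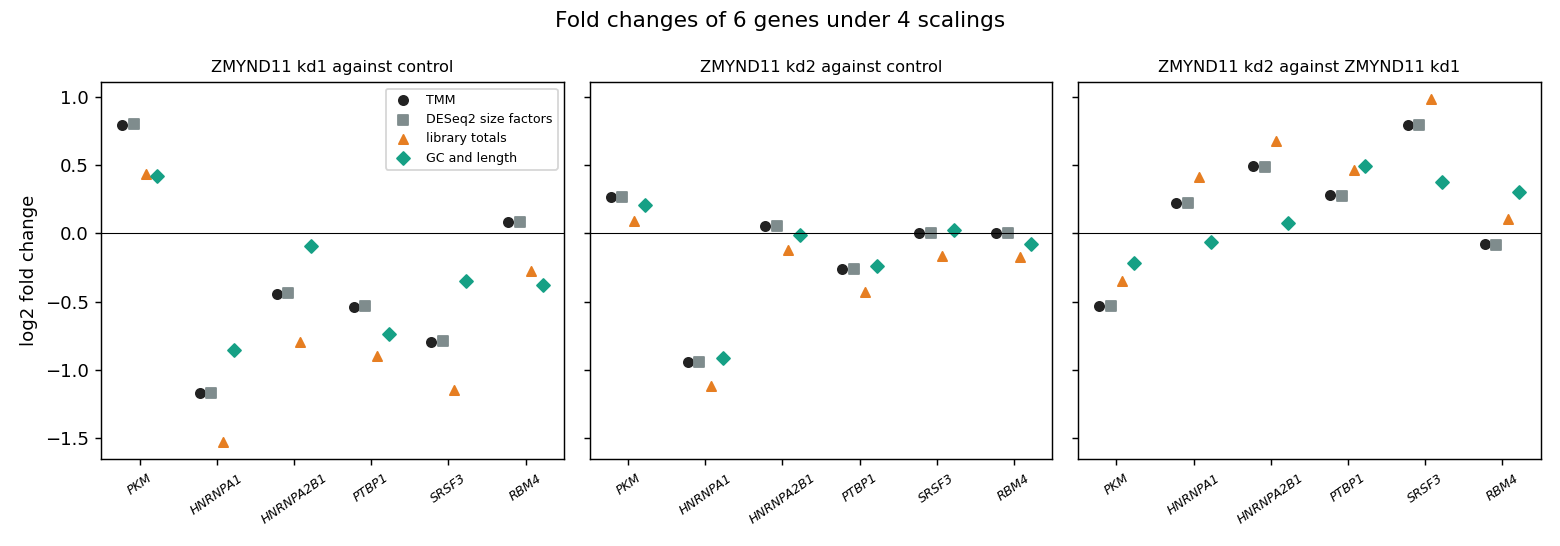
Log2 fold change (y axis) of 6 genes in 3 comparisons under TMM, DESeq2 size factors, library totals alone and a GC and length correction; NEK2 is left out because its change lies far off this scale. Points for HNRNPA1 and PTBP1 stay below 0 against control under each scaling, PKM stays above 0, and RBM4 changes side in kd1, from 0.08 to -0.38.

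Relatives of these genes did not move as a block. Of 16 paralogs listed, 14 passed the filter; in kd1 4 were higher, 9 lower and 1 not called (median log2 fold change -0.56 against -0.029 for all genes), and in kd2 2 were higher, 10 lower and 2 not called (median -0.59 against -0.028). HNRNPA0, another hnRNP of the A/B family, rose by 0.71 and 0.59 on the log2 scale while HNRNPA1 fell. HNRNPA3 was lower by a smaller step (-0.31 and -0.14). PTBP2, the neuronal relative of PTBP1, and PTBP3 both fell, to -1.15 and -1.04 for PTBP2 and -1.10 and -0.76 for PTBP3. SRSF7 fell in both knockdowns (-0.80 and -1.30), unlike SRSF3, which was not called in kd2. RBM14, the upstream neighbour of RBM4, fell (-0.63 in kd1 and -1.66 in kd2), whereas RBM4B, the near copy of RBM4, was called higher in kd1 (0.18, edgeR adjusted p = 0.0318) and not in kd2 (0.13, edgeR adjusted p = 0.11). Values of RBM4B under the other scalings were not kept, and under some of these the kd1 value of RBM4 changed sign. Of the NEK2 relatives, NEK4 fell to -2.17 in kd1 and -0.68 in kd2, and NEK8 to -2.16 and -1.91, the latter the largest fall of the list in kd2. PKLR, the liver and red cell pyruvate kinase gene, had 0 counts in 5 libraries and 4 counts in kd1 replicate 2, so nearly all pyruvate kinase reads came from PKM.

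Of 3 further genes reported to act on PKM splicing, all 3 were lower in kd1 and 2 in kd2. MYC, a transcription factor that drives PTBP1, HNRNPA1 and HNRNPA2B1 in other cells, gave 132 and 132 normalized CPM in control, 17.8 and 18.6 in kd1 and 55.4 and 54.3 in kd2. These groups did not overlap (log2 fold changes -2.85 and -1.26, edgeR adjusted p = 6.98e-14 and 9.97e-11), and kd2 lay between kd1 and control. RBMX, an RNA-binding protein that has been reported to keep HNRNPA1 from PKM, fell (log2 fold changes -0.65 and -0.33). KHDRBS1 (Sam68) was lower in kd1 (-0.21, edgeR adjusted p = 0.00319) and not called in kd2 (0.12, edgeR adjusted p = 0.0676). CACGTG, the E-box that MYC binds, was found in 0 of the RefSeq promoters matched to 6 of the 7 genes (HNRNPA1 was not matched), where 7.256% of 35116 promoters hold it. Each promoter spans 250 bases before to 50 after the start, and no match says only that these letters are not in that window.

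NEK2 moved with the mitotic genes. All 12 of 12 mitotic markers were lower in both knockdowns, with medians of -4.75 and -4.51. MKI67, the proliferation antigen Ki-67, fell most in both (-8.11 and -6.59), and CCNB2 in kd1 (-3.91) and AURKA in kd2 (-2.94) fell least, so the NEK2 values of -6.05 and -5.05 lay inside the range of the list. The summed level of the markers was 1225 and 1232 CPM in control, 27.4 and 30.6 in kd1 and 51.7 and 50.4 in kd2. Between the knockdowns 10 of the 12 were higher in kd2, with a median of 1.22 beside the 1.00 of NEK2. In bulk RNA, fewer cells in mitosis and less of these transcripts per cell cannot be told apart, and the part of this difference in the values of the other 6 genes was not tested.

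**Figure D5:**
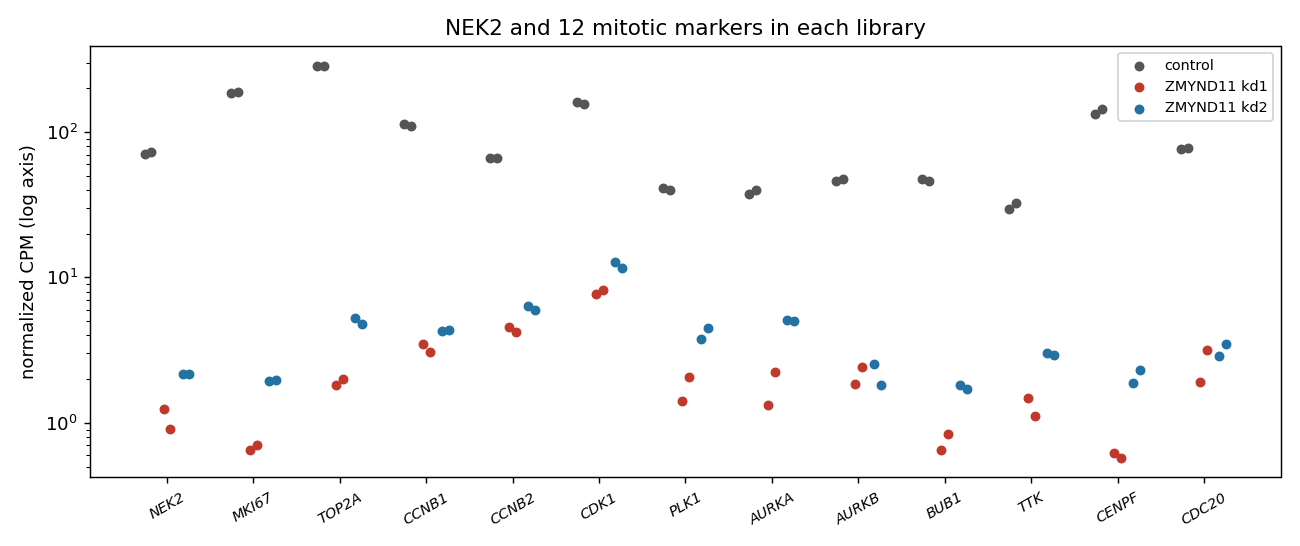
Normalized CPM (log axis) of NEK2 and 12 mitotic markers in each library. Control points lie above 20 CPM and knockdown points below 20 CPM for every gene, and NEK2, at 0.912 to 2.18 CPM in the knockdowns, lies within the range of the markers.

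The NEK2 promoter is shown, as that of the member with the largest change, in the form RefSeq gives for GRCh38.p14, on the minus strand of chromosome 1, with CCAAT (searched with its reverse complement ATTGG) in capitals.
NEK2 promoter (chr1:211675572-211675871): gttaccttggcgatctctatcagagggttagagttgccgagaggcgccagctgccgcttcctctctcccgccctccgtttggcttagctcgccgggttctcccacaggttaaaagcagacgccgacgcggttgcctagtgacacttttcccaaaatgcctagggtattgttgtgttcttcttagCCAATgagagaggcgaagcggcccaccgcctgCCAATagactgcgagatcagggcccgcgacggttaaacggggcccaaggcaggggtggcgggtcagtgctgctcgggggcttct

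CCAAT, the letters read by the factor NF-Y, occurs 2 times in the NEK2 promoter. It is not particular to NEK2, since all 6 members with a promoter entry hold it in at least 1 entry, RBM4 (5 times) included. The second PTBP1 entry holds it 0 times. All 10 of the 12 markers with a promoter entry hold it in at least 1 entry, beside 34.614% of all single promoters. TTTGAA, a core of the cell cycle homology element, searched with its reverse complement TTCAAA, occurs in 7 of those 10 by the same count and in 15.161% of all single promoters. It is not in the NEK2 window. A gene with several entries has more chances to hold a motif than a single promoter. Binding was not measured here, and no test was made of these shares.

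Proteins that NEK2 works with at the centrosome and kinetochore were mixed. Of 8 such genes, 2 were higher, 5 lower and 1 not called in kd1 (median -0.50), and 1 was higher, 6 lower and 1 not called in kd2 (median -0.90). NDC80, a kinetochore protein, fell (log2 fold changes -4.60 and -3.66), the largest falls of the list. PPP1CA, a catalytic subunit of the phosphatase that opposes NEK2, rose by 0.87 and 0.31, while PPP1CC, another catalytic subunit of that phosphatase, fell (-0.71 and -0.62). LRRC45, a centrosome linker protein, was lower at -1.33 and -1.86.

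The rest of the pathway in which PKM acts went in both directions. Of 15 glycolysis genes, 6 were higher, 6 lower and 3 not called in kd1 (median -0.13), and 9 were higher, 5 lower and 1 not called in kd2 (median 0.25). Their summed level was 4447 and 4600 CPM in control, 5013 and 4995 in kd1 and 4364 and 4348 in kd2, so the sum was higher than control in kd1 and lower in kd2, a description with no test. The TMM factors were 1.134 and 1.124 in control and 0.8897 and 0.8759 in kd1, so the direction of the sum in kd1 depends on this scaling. ALDOC, an aldolase, had the largest rise in kd1 (1.86, and 1.06 in kd2). HK2, the hexokinase that starts glycolysis in many cancer cells, fell by 1.10 in kd1 and rose by 1.09 in kd2. PFKL, a phosphofructokinase, had the largest fall of the list in kd2 (-1.11, and -0.18 in kd1). LDHA, which turns pyruvate to lactate, rose by 1.04 in kd1 and by 0.12 in kd2, in the same order as PKM.

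Genes that decide the fate of pyruvate were also split. Of 13 such genes, 6 were higher, 4 lower and 3 not called in kd1 (median -0.02), and 2 were higher, 9 lower and 2 not called in kd2 (median -0.73). SLC16A1, the lactate and pyruvate carrier MCT1, gave 26.5 and 26.9 normalized CPM in control, 0.677 and 0.946 in kd1 and 6.44 and 5.93 in kd2, log2 fold changes of -5.05 and -2.11. PDK3, a kinase that shuts pyruvate dehydrogenase, fell (log2 fold changes -1.97 and -2.19). MPC1, a subunit of the mitochondrial pyruvate carrier, rose by 0.73 and 0.54.

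Markers of the labelled cell type were looked at in every library. FOXA1, a transcription factor of luminal prostate cells, gave 465 and 466 normalized CPM in control, 584 and 584 in kd1 and 680.2 and 686 in kd2. It was well detected in every library. KLK3, which encodes PSA, fell (log2 fold changes -3.24 and -2.36), and the luminal keratin KRT18 rose by 1.25 and 0.92. Of 9 markers of other cell types 5 passed the filter, 3 rose in both knockdowns and 2 were not called, and their sum was 30.6 and 30.8 CPM in control, 139 and 144 in kd1 and 54.4 and 54.8 in kd2. The sum was carried by VIM (3.46 and 1.90) and COL1A1, while COL1A2, with the largest rise of the list (3.62 and 3.48), stayed below 1 CPM, and the immune marker PTPRC and the endothelial marker PECAM1 stayed below 0.5 CPM in each library. The part of these changes in the values of the 7 genes was not tested.

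The study's shRNA targets against ZMYND11 are shown because 7-base seed sites of a hairpin can occur in the 3′ UTRs of other genes. Capitals mark the site that pairs with the seed of the guide strand.
shRNA-1: cctgacaactggtTCTGTTAt
shRNA-2: cgtgtcaactcagACAAAGAa

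The shRNA-1 site occurs 1 time in the 3′ UTRs of HNRNPA1 and NEK2, and the shRNA-2 site 1 time in those of HNRNPA1 and HNRNPA2B1. The other members hold 0 sites, and none of the 7 holds a full match. Of 18843 3′ UTRs, 14.085% hold the first site and 15.385% the second. The sources used here do not give the hairpin of each knockdown. For HNRNPA1, with 1 site of each hairpin, and for PKM, PTBP1, SRSF3 and RBM4, with 0 of either, this makes no difference. For NEK2 and HNRNPA2B1 it does, so their sites could not be set beside the values of a knockdown. The part of these sites in the changes was not tested.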

How the data were processed

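RNA-seq was performed on 22Rv1 cells, with 2 libraries each of control, ZMYND11 kd1 and ZMYND11 kd2. Groups follow the sample labels. The values deposited by the authors are raw read counts for each gene symbol, without normalization. Trimming, alignment by STAR (build hg38) and sorting were done by the authors. The submitters' processing notes name FastQC 0.11.9, STAR 2.7.9a and HTSeq 0.13.5 with no role. Annotation, strand use and the treatment of reads with several matches are not given in the sources used here. Totals of 26844128 to 38193748 counts per library set the precision of low counts.

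Differential expression was assessed in R 4.3.3 by edgeR 4.0.16 (TMM, filterByExpr, quasi-likelihood test, two-sided) in a single fit of the 3 groups with 3 residual degrees of freedom, with Benjamini-Hochberg adjustment over 16510 genes and calls at an adjusted p under 0.05. Levels are CPM on TMM-scaled library sizes, given as means over 2 libraries where pooled. The functions were tested on simulated data in which 200 genes changed, alike in both knockdowns. Far more genes were called here, so that check does not cover the scaling of these libraries or the wider spread within kd2. Sequences were read with Python 3.11.15 and pysam 0.24.0 from GRCh38 with GENCODE 44, and promoters from RefSeq. Of 35322 symbols, 32852 matched the annotation by name, 248 by a RefSeq synonym, and 2222 did not match. GC content and length were known for 97.4% of tested genes. Figures were drawn with matplotlib 3.10.9.

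Members and lists were chosen with earlier results of these data known. Named genes were the 7 members, ZMYND11, the largest called rise or fall of each list, genes that a sentence on a member needed, and for each member the 3 genes of nearest profile. Some genes that fall under it are left out of the text. Others named from the lists were chosen after their values were seen. Alternatives were DESeq2 size factors, the DESeq2 1.42.0 Wald test, library totals alone, a correction for GC content and length (lowess span 0.3), a replicate block, fits of only the groups compared, a stricter filter (10 or more counts in each library), no filter, and leaving out single libraries. Values of single genes under these alternatives were kept only for the 7 members, so those of the listed genes rest on the main fit alone. Splicing and isoforms were not analysed here.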

Additional observations from a re-analysis of the deposited data

Results flagged for a closer look

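The 6 genes below were picked out because the effect of the knockdowns differed between kd1 and kd2 by a test of the difference itself (edgeR's quasi-likelihood test, adjusted over all genes tested). On the log2 scale, kd2 against kd1, the differences were -0.53 for PKM, 0.23 for HNRNPA1, 0.49 for HNRNPA2B1, 0.28 for PTBP1, 0.80 for SRSF3 and 1.00 for NEK2. With 68.8% of all genes tested called in this comparison, such a difference was common. After the GC and length correction the HNRNPA1 and HNRNPA2B1 differences were not called, and the other 4 were. With groups of 2 libraries, which library of a group was outlying could not be told. Leaving out each library in turn gave differences from -0.56 to -0.50 for PKM and from 0.16 to 0.29 for HNRNPA1. The ranges were 0.40 to 0.58 for HNRNPA2B1, 0.25 to 0.30 for PTBP1, 0.73 to 0.86 for SRSF3 and 0.81 to 1.25 for NEK2.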

How the results depend on the processing

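Of 294 values of the 7 genes under the alternatives, 270 kept direction and side of the threshold and 20 changed sign; 6 gained a call, 5 of them with a changed sign, and 4 lost one, 1 of them with a changed sign. Against control, the falls of HNRNPA1, PTBP1 and NEK2 kept both in each knockdown under every alternative run. Counts of all genes called stayed within 1.5 times of those reported. With library totals alone, log2 fold changes that changed sign were -0.27 for RBM4 in kd1, and in kd2 -0.12 for HNRNPA2B1, -0.17 for SRSF3 and -0.17 for RBM4, with 0.10 for RBM4 between kd2 and kd1. This scaling moved the median of all genes to -0.383 in kd1, -0.198 in kd2 and 0.205 between them, and the share of calls that were higher to 35.3% from 49% in kd1 and to 61.1% from 50.8% between knockdowns. After the GC and length correction, RBM4 was -0.38 in kd1, -0.0739 in kd2 and 0.30 between knockdowns (called, edgeR adjusted p = 0.00248), HNRNPA2B1 was -0.0114 in kd2, and HNRNPA1 was -0.062 between knockdowns. With at least 10 counts in every library, SRSF3 and RBM4 in kd2 were -0.0345 and -0.0384, and with only the groups compared -0.0058 and -0.0097. The cause of these changes was not tested. Leaving out each library in turn, where the lone library left in a group is assumed to vary like the other groups, gave ranges in kd2 of -0.0288 to 0.136 for HNRNPA2B1, -0.0529 to 0.0647 for SRSF3 and -0.0612 to 0.0643 for RBM4.

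Replicate numbers did not pair the samples: deviations of same-numbered libraries correlated at 0.0062, -0.0264 and -0.044. With the replicate block, 12545, 11688 and 10978 genes were called in kd1, kd2 and between knockdowns, and among the 7 genes only RBM4 in kd2 changed sign, to -0.0001, with no call changed. Depth limits low genes most, such as NEK2 at 27 to 78 counts in the knockdowns.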

Other observations

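The genes whose centred log2 CPM profile over the 6 libraries lay nearest to each of the 7, by Euclidean distance, are given as a description; the libraries fall into 3 groups, so many genes share a profile. Nearest to PKM were EMD (distance 0.043), GPR108 (0.0744) and LYPLAL1 (0.0805). Nearest to HNRNPA1 was HNRNPDL (0.0435), another hnRNP gene, and CDC42EP4 (0.0941) was also near. HNRNPA2B1 lay nearest to SMC3 (0.065), a cohesin subunit, TFAM (0.0938) and MRS2 (0.106). For PTBP1 the nearest were STRBP (0.0723), LIMCH1 (0.0801) and UBXN7 (0.0812), and for SRSF3 they were MTHFD1L (0.0809), PPIL1 (0.0825) and LAPTM4B (0.0953). RBM4 lay nearest to SUMF1 and LOC100130207, both at 0.0283 with equal counts to each other, and to TTC8 (0.0693). NEK2 had no gene as near, with MEP1A at 0.286, the kinetochore gene KNL1 at 0.329 and TICRR, a replication initiation gene, at 0.489.

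ALDOA, an aldolase gene usually abundant in glycolytic cells, had a level of 1.62 to 2.83 CPM in the 6 libraries, beside 1205 and 1246 CPM for GAPDH in control. It was not called in either knockdown (log2 fold changes -0.13 and 0.25, edgeR adjusted p = 0.683 and 0.396). How reads in overlapping genes were counted is not given in the sources used here, so this value is uncertain and is not to be read as a low level of expression. The count enters the glycolysis list above as deposited.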
